A study of Rattus norvegicus with 30 samples.

Results

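The 36 genes of the rat mitochondrial genome that the annotation lists were followed in lung RNA. They were taken as every gene placed on chromosome MT, among 22914 genes with read counts. By the annotated gene type, 13 were protein-coding, 2 were ribosomal RNAs (rRNAs) and 21 were transfer RNAs (tRNAs). All 13 mRNAs, both rRNAs and 8 tRNAs held enough reads to be tested, which made 23 of 15934 tested genes. The files place these genes on MT without start or end positions.

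Lungs came from male Sprague Dawley rats aged 8 weeks, 1 rat per RNA-seq library, in 10 groups of 3. Groups are named by treatment and by the time of sampling, 6 or 24 hours after surgery. In Sham-6h and Sham-24h the pancreas was moved and nothing was infused. Con-6h and Con-24h rats received a sterile saline infusion of the biliopancreatic duct. SAP-6h and SAP-24h rats had 5.0% sodium taurocholate infused instead, a bile salt used to model severe acute pancreatitis (SAP), which is accompanied by acute lung injury. DEX-6h and DEX-24h rats received taurocholate and then dexamethasone (DEX), a synthetic glucocorticoid, intravenously at 10 mg/kg. Emo-6h and Emo-24h rats received taurocholate and then emodin, an anthraquinone from rhubarb, by the intragastric route. The labels give the emodin dose both as 10 and as 40 mg/kg. Drugs were given at 2 and 12 hours, so rats studied at 6 hours had received 1 dose. Rats without DEX received intravenous saline, rats without emodin received intragastric carboxymethylcellulose, and the lungs were perfused with saline through the pulmonary artery.

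The mitochondrial genome is a small circular DNA present in many copies per cell. Its mRNAs encode subunits of 4 of the oxidative phosphorylation (OXPHOS) complexes, and its rRNAs and tRNAs build the ribosome system that translates them inside the organelle. Both strands are transcribed by the polymerase Polrmt, with the factors Tfam and Tfb2m and the elongation factor Tefm, into long transcripts that are cut apart at the tRNAs. Most mRNAs lie on one strand, and Mt-nd6 lies on the other. Most OXPHOS subunits, complex II as a whole and the proteins that copy and express mitochondrial DNA are encoded in the nucleus. In lung, alveolar type 2 cells, which secrete surfactant, are known for many mitochondria, and heart muscle, whose sleeves extend along the pulmonary veins, is among the tissues richest in them.

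The 30 libraries held a median of 27550000 reads on genes, and both the smallest (16813949, replicate 3) and the largest (34692306, replicate 2) belonged to SAP-6h. The labels give no batch or date. Summed FPKM (fragments counted on a gene, scaled by its length and by library depth) of 7 alveolar type 2 markers was 24870 or more in every library, so lung RNA was present in all. The sum of 10 heart muscle markers varied from 8 to 379.3 between libraries, with the lowest value, 8, and another of 163.5 both in SAP-24h.

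The 13 mitochondrial mRNAs took 2.56% of the reads on genes in the lowest library, replicate 3 of Emo-6h, and 5.87% in the highest, replicate 2 of DEX-24h, with a median of 4.63%. The share (mean ± SD, n = 3) was 5.11% ± 0.531 in SAP-6h, against 3.62% ± 0.431 in Con-6h and 4.49% ± 0.62 in Sham-6h. In DEX-6h it was 4.21% ± 0.669, and in Emo-6h it was 3.32% ± 0.753, the lowest mean of the 10 groups. Without replicate 3 the Emo-6h mean was 3.70%, above the Con-6h mean. At 24 hours the share was 4.78% ± 0.446 in SAP-24h, against 3.83% ± 0.506 in Con-24h and 4.84% ± 0.0457 in Sham-24h. With DEX it was 5.23% ± 0.556 and with emodin 5.09% ± 0.335, the range of which, 4.85% to 5.48%, lay above all Emo-6h libraries (2.56% to 4.07%). All 3 DEX-24h libraries, at 4.88% or more, also lay above the DEX-6h libraries, of which the highest was 4.83%. The DEX groups overlapped when library size was scaled as for the tests. On that scale replicate 1 of DEX-24h was at 4.65%, below replicate 1 of DEX-6h at 5.01%. The order of other groups at 24 hours also turned on the scale. With scaled sizes the mean of SAP-24h was 5.15%, above those of Emo-24h (4.74%) and Sham-24h (4.63%). As shares of the reads on genes, the libraries of SAP-6h (4.51% to 5.52%) and SAP-24h (4.36% to 5.25%) overlapped. These shares are sums over the genes studied and were not tested. In bulk tissue, fewer cells of a mitochondria-rich type and less mitochondrial RNA per cell cannot be told apart.

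**Figure D1:**
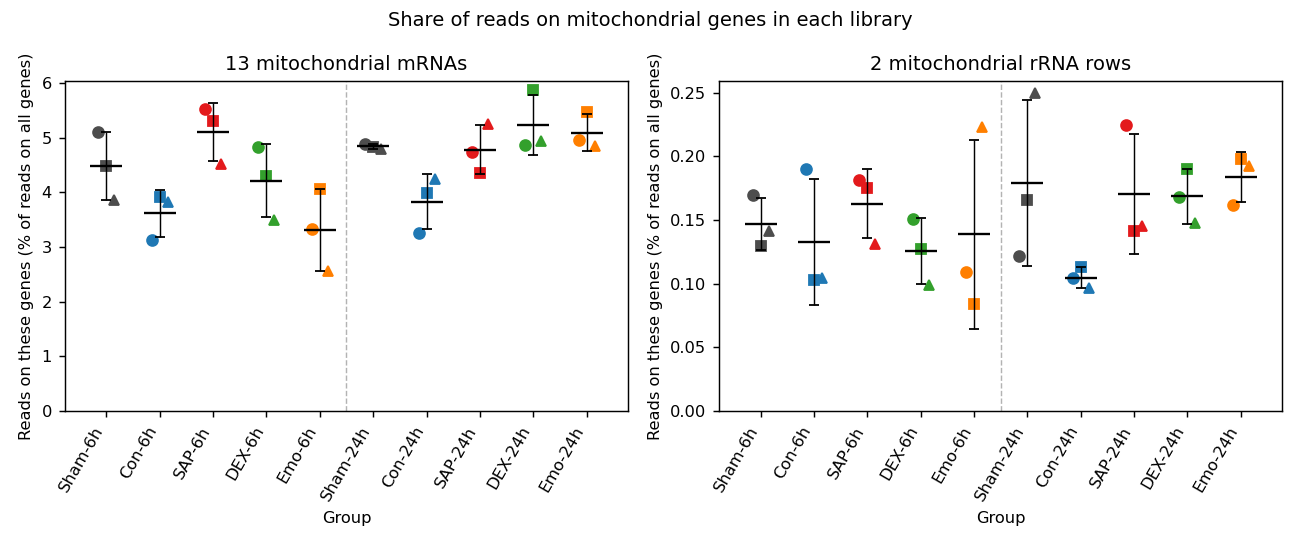
Share of all reads on genes that fell on the 13 mitochondrial mRNAs (left) and on both rRNA genes (right), in percent, for each library (circle, square and triangle for replicates 1, 2 and 3), with the mean and SD of each group as bars. The mRNA share is lowest in replicate 3 of Emo-6h (2.56%) and highest in replicate 2 of DEX-24h (5.87%), while the rRNA share stays under 0.25% in all 30 libraries.

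Of the mitochondrial mRNA reads, the 3 complex IV genes took 54.5% on average over the 30 libraries, with a range of 49.6% to 60.3%. Complex IV, cytochrome c oxidase, passes electrons to oxygen. Mt-co1, its catalytic subunit I, alone held 34.1% of these reads (27.8% to 38.7%) and ranked from 3 to 6 among all genes by reads in every library. The 7 complex I genes, subunits of the NADH dehydrogenase, held 21.5% (18.1% to 25.0%). Mt-cytb, the only mitochondrial subunit of complex III, held 11.2% (9.21% to 15.2%), and the 2 subunits of the ATP synthase, complex V, held 12.9% (10.7% to 15.2%).

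Levels per gene length, in FPKM, formed 3 tiers. Mt-co1 (ENSRNOG00000034234) was highest with a mean of 8162 over 30 libraries and lay above the next gene in all 30. It was followed by Mt-atp6 (ATP synthase subunit a) at 5876, Mt-cox3 (cytochrome c oxidase subunit III) at 5624 and Mt-co2 (subunit II, which takes electrons from cytochrome c) at 4603. Mt-cytb at 3602, Mt-atp8 (a small ATP synthase subunit) at 3553 and Mt-nd1 at 3250 completed the upper tier. Mt-nd3 at 1473, Mt-nd2 at 1449 and Mt-nd4 at 1337 formed a middle tier, and Mt-nd4l at 501, Mt-nd5 at 360 and Mt-nd6 at 317 a lower one. The steps between tiers held in every library: Mt-nd1 exceeded Mt-nd3 in 30 of 30, and Mt-nd4 exceeded Mt-nd4l in 30 of 30.

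Within a tier the order was less firm. Mt-atp6 exceeded Mt-cox3 in 17 of 30 libraries, Mt-cytb exceeded Mt-atp8 in 13 and Mt-nd3 exceeded Mt-nd2 in 14, so these neighbours did not differ beyond the spread of libraries. Mt-cox3 lay above Mt-co2 in 28 of 30, Mt-nd4l above Mt-nd5 in 25 and Mt-nd5 above Mt-nd6 in 22. The ratio of the highest to the lowest library was smallest for Mt-co1, at 2.09, and largest for Mt-nd6, at 4.72. Replicate 3 of Emo-6h was the lowest of the 30 libraries for 8 mRNAs, and replicate 2 of DEX-24h the highest for 5. By group means, Emo-6h was lowest for 9 mRNAs and Con-24h for 3.

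**Figure D2:**
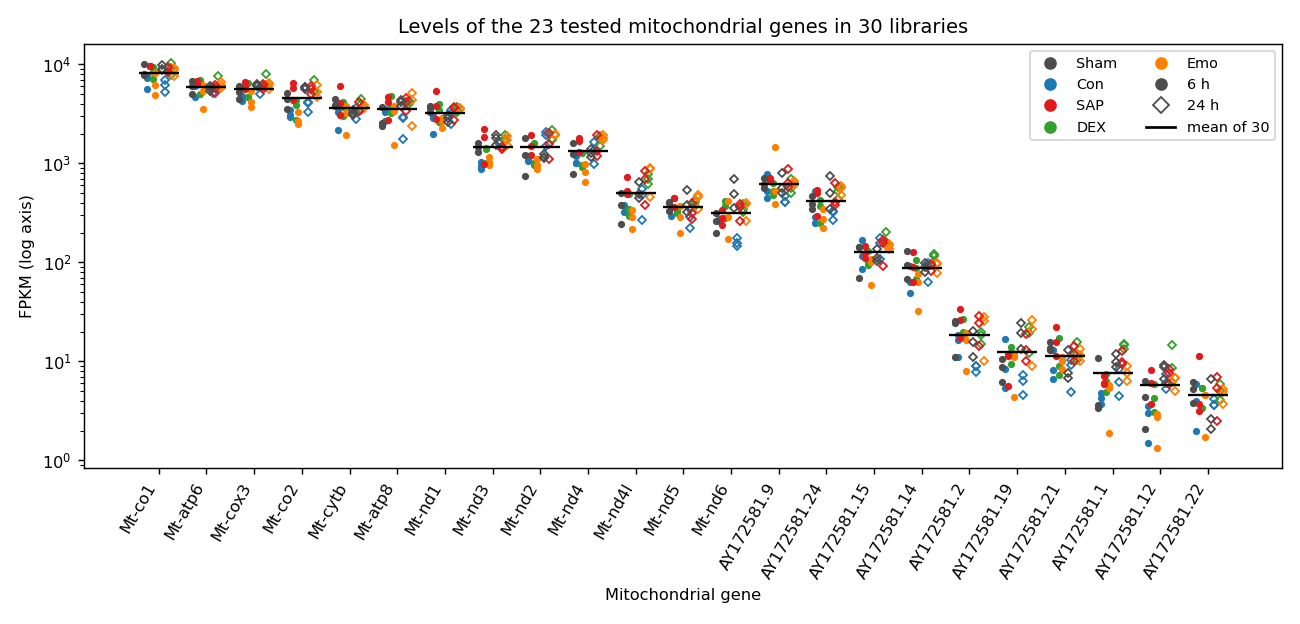
FPKM of the 23 tested mitochondrial genes on a log axis, 1 point per library (circles for 6 h, diamonds for 24 h, colours for treatments), with a bar at the mean of 30 libraries. Mt-co1 is highest (mean 8162 FPKM), the complex I genes Mt-nd4l, Mt-nd5 and Mt-nd6 are the lowest mRNAs, and the 8 tested tRNAs lie below the rRNAs.

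The libraries were made from polyadenylated RNA, which selects against rRNAs and tRNAs, so their levels here are not those of the whole tissue. The 2 rRNA genes, AY172581.9 and AY172581.24, are not named in the files. By the length implied by counts and FPKM, AY172581.9 is the shorter, at 0.62 of the length of Mt-co1, and AY172581.24 the longer, at 1.02. AY172581.9 averaged 620 FPKM (386 to 1449) and AY172581.24 averaged 419 FPKM (224 to 742). In replicate 3 of Emo-6h, AY172581.9 stood at 1449 FPKM against 525 and 386 in the other replicates, and its ratio to AY172581.24 was 4.19. The next highest ratio of the 30 libraries was 2.33, in replicate 3 of SAP-6h. That Emo-6h library is also the one in which 8 of the mRNAs were lowest.

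Among the tRNA genes, AY172581.15 and AY172581.14 were highest, with means of 129 and 87.9 FPKM, and together they held 75.4% of all tRNA reads. The other tested tRNAs were AY172581.2 (18.3 FPKM), AY172581.19 (12.5), AY172581.21 (11.4), AY172581.1 (7.62), AY172581.12 (5.74) and AY172581.22 (4.56). Median reads per library for the 8 tested tRNAs ran from 10.5 to 312. The 13 untested tRNA genes never had more than 12 reads in a library, and 11 of them had 0 reads in at least 1 library, AY172581.7 in 28 of 30. A tRNA is shorter than the sequenced fragments, so a read on it can belong to an uncut precursor or a neighbouring transcript.

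Differences between groups were tested with edgeR's quasi-likelihood test in a single model of all 30 libraries, and a gene passed at a Benjamini-Hochberg adjusted p under 0.05 over the 15934 genes. A gene that also changed at least 2-fold is called a differentially expressed gene (DEG). Differences are log2 fold changes with the standard error (SE) of the fit. Of 24 comparisons, 21 were between pairs of groups and 3 were tests of whether an effect differed between 24 and 6 hours. At least 1 mitochondrial mRNA passed in 7 of them and none passed in the other 17. Of the calls, 22 were higher and 1 was lower in the group named first. Mt-co2 passed in 6 comparisons, Mt-nd3 and Mt-nd4 in 3 each, Mt-co1, Mt-nd2, Mt-nd4l and Mt-nd6 in 2 each, and Mt-atp8, Mt-cox3 and Mt-nd5 in 1 each. Mt-atp6, Mt-cytb and Mt-nd1 passed in none. Several comparisons share a group, so their calls are not separate evidence.

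**Figure D3:**
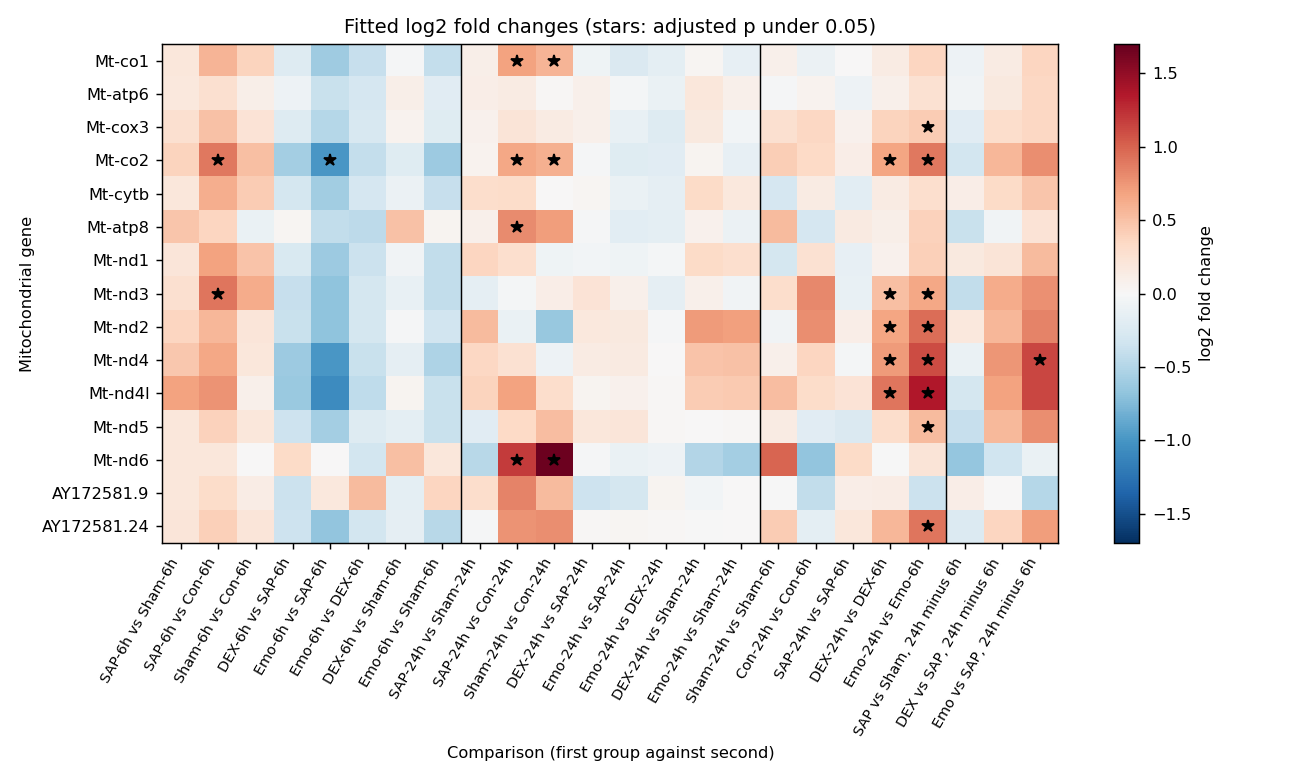
Fitted log2 fold changes of the 13 mitochondrial mRNAs and both rRNAs (vertical axis) in the 24 comparisons (horizontal axis), red for higher and blue for lower in the group named first, with a star where the adjusted p was under 0.05. Stars lie in 7 comparisons, most in Emo-24h vs Emo-6h (7 mRNAs) and DEX-24h vs DEX-6h (5 mRNAs), and the darkest red is Mt-nd6 in Sham-24h vs Con-24h (1.67).

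At 6 hours, the SAP lungs were compared with both kinds of control. Against saline-infused lungs, 2 of 13 mRNAs were higher in SAP-6h (0.207% of all tested genes passed). Mt-co2 stood at 5718, 6552 and 4344 FPKM in SAP-6h and at 2951, 3424 and 3062 FPKM in Con-6h. Every SAP-6h library lay above every Con-6h library, and the difference was 0.89 ± 0.18 (adjusted p = 0.0315). Mt-nd3, a small complex I subunit, stood at 1861, 2198 and 988 FPKM against 884, 1024 and 935, with a difference of 0.90 ± 0.19 (adjusted p = 0.0428). Its groups overlapped, since replicate 3 of SAP-6h lay below replicate 2 of Con-6h. All 13 fitted differences were above 0, from 0.19 to 0.90 with a median of 0.58, against a median of -0.01 over all tested genes. FPKM did not overlap between the groups for 7 mRNAs, all higher in SAP-6h, as for 5.08% of all tested genes in that direction. Neither call held without replicate 1 or 2 of SAP-6h or without any 1 of the 3 Con-6h libraries (adjusted p of 0.0545 to 0.211 for Mt-co2 and 0.0676 to 0.232 for Mt-nd3). Neither held in a fit of the 2 groups alone (0.141 and 0.273) or in limma on log2(FPKM + 1) (0.159 and 0.149), while DESeq2 called 4 mRNAs. Of the cell marker lists, 1 of 5 endothelial genes passed, lower in SAP-6h.

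Against Sham-6h, none of the 13 mRNAs passed in SAP-6h (0.27% of all genes), 3 had an unadjusted p under 0.05 (13.1% of all genes), and DESeq2 called 0. All 13 differences were above 0, with a median of 0.27. The controls were also compared with each other. No mRNA passed in Sham-6h vs Con-6h (0% of all genes), 4 had an unadjusted p under 0.05 (8.61% of all genes), all higher in Sham-6h, and DESeq2 called 0. Mt-co2 stood at 5136, 4518 and 3557 FPKM in Sham-6h, above all 3 Con-6h libraries (difference 0.51, adjusted p = 0.416).

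Whether either drug altered these levels at 6 hours was asked against SAP-6h. Mt-co2 was lower in Emo-6h, at 2473, 3290 and 2658 FPKM against 5718, 6552 and 4344 FPKM in SAP-6h, and it was the only one of 13 mRNAs to pass (0.0314% of all genes, 5 genes). The libraries did not overlap, and the level fell by 0.99 ± 0.18 on the log2 scale (adjusted p = 0.0361). The complex I genes Mt-nd4 (-0.98, adjusted p = 0.19) and Mt-nd4l (-1.06, adjusted p = 0.203) had differences of the same size without passing. In all, 11 mRNAs had an unadjusted p under 0.05 (13.5% of all genes in either direction), each lower in Emo-6h, and the median difference was -0.60 against 0.00 over all genes. Mt-nd6 was the exception among 13, with a difference of 0.00. The Mt-co2 call was lost without replicate 1 or 3 of Emo-6h or replicate 1 or 2 of SAP-6h (adjusted p of 0.101 to 0.342). It was also lost in the 2 groups alone (0.359), without the filter on low counts (0.0632) and in limma on log2(FPKM + 1) (0.159), while DESeq2 called 5 mRNAs. The median difference of the 10 heart muscle markers was -1.24 in the same comparison, with none passing. Of 6 ciliated cell markers, 3 had an unadjusted p under 0.05, with a median difference of -0.62. So did 2 of 5 endothelial, 2 of 6 macrophage and 1 of 7 alveolar type 2 genes (medians 0.21, 0.19 and -0.15). None of these passed, and the part of these markers in the result was not tested.

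No mRNA passed in DEX-6h vs SAP-6h (0.979% of all genes), where 4 had an unadjusted p under 0.05 (12.1% of all genes), each lower in DEX-6h, the median was -0.29 and DESeq2 called 0. In Emo-6h vs DEX-6h (2.88% of all genes) none passed, 2 had an unadjusted p under 0.05 (17.3%) and DESeq2 called 0. Likewise none passed in DEX-6h vs Sham-6h (9.75% of all genes), with 0 at an unadjusted p under 0.05 (25.3%) and 0 by DESeq2. In Emo-6h vs Sham-6h (3.26% of all genes) none passed, 4 had an unadjusted p under 0.05 (22.6%) and DESeq2 called 1. Mt-co2 had the lowest adjusted p there, 0.056, with a difference of -0.61. With a replicate block in the fit 1 mRNA passed.

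At 24 hours the saline-infused lungs stood apart. Mt-nd6, the complex I subunit encoded on the other strand, was at 157, 148 and 178 FPKM in Con-24h. It stood at 697, 495 and 350 FPKM in Sham-24h and at 358, 264 and 385 FPKM in SAP-24h. All Con-24h libraries lay below every library of the other groups at 24 hours, of which the lowest was 263 FPKM, in replicate 3 of Emo-24h. Mt-nd6 was 3.18-fold higher in Sham-24h (1.67 ± 0.26, adjusted p = 0.00183) and 2.28-fold higher in SAP-24h (1.19 ± 0.26, adjusted p = 0.00273), which made it a DEG in both comparisons, as were 1% and 6.91% of all tested genes. These comparisons share the Con-24h libraries. At 6 hours, Con-6h had stood at 259, 273 and 263 FPKM, between the Sham-6h values of 318, 200 and 262. The Con-24h level was lower than that of Con-6h by -0.67 (adjusted p = 0.331), and the Sham-24h level higher than that of Sham-6h by 1.00 (adjusted p = 0.0529), neither of which passed. The test of whether the Sham and Con difference itself changed with time, added after these values were seen, gave 1.67 with an adjusted p of 0.334. Reads of Mt-nd6 and of transcripts from the opposite strand cannot be told apart where the counting ignored strand, and whether it did is not given in the sources used here. Both calls held without each library in turn, with adjusted p of at most 0.0332 and 0.0196, and the call in Sham-24h vs Con-24h was lost only in a fit of the 2 groups alone (0.0794).

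The same Con-24h lungs also held less of the complex IV mRNAs Mt-co1 and Mt-co2. At 6 hours, too, the Con libraries of both genes lay below all Sham and SAP libraries, though not below all DEX or emodin libraries. There Mt-co1 stood at 5645, 7584 and 7243 FPKM in Con-6h, against 7850 to 10194 in Sham-6h and 9599 to 9675 in SAP-6h. It did not pass against either group. In SAP-24h vs Con-24h, 4 of 13 mRNAs passed (22.1% of all genes), all higher in SAP-24h. Mt-co1 stood at 9290, 8320 and 9304 FPKM against 5245, 6141 and 7013, with no overlap (0.68 ± 0.17, adjusted p = 0.00596). Mt-co2 stood at 5023, 5624 and 6077 FPKM against 3288, 4032 and 4180, again with no overlap (0.66 ± 0.18, adjusted p = 0.0108). Mt-atp8 stood at 3387, 4131 and 4528 FPKM against 1750, 2923 and 2854 (0.80 ± 0.28, adjusted p = 0.0403). The 4 of 13 that passed make a share near that of all genes. The tRNA genes AY172581.2 (1.52 ± 0.42, adjusted p = 0.0124) and AY172581.19 (1.34 ± 0.47, adjusted p = 0.0431) rose as well. The AY172581.2 call was lost without replicate 2 of Con-24h or replicate 1 of SAP-24h (0.0597 and 0.0714) and in the 2 groups alone (0.0789). That of AY172581.19 held only without replicate 3 of SAP-24h (0.0523 to 0.196 otherwise), and it was lost without the low-count filter (0.0592), in the 2 groups alone (0.115) and in limma on log2(FPKM + 1) (0.0933). Mt-nd3 (-0.03) and Mt-nd2 (-0.11) had differences near 0, though by FPKM all SAP-24h libraries of Mt-nd3 (1382 to 1474) lay below those of Con-24h (1597 to 1633). The Mt-co1 call held without each library, the Mt-co2 call was lost without replicate 1 of Con-24h (0.0596), and the Mt-atp8 call held only without replicate 3 of Con-24h, with adjusted p of 0.0615 to 0.185 otherwise. The 2 groups alone gave 0.088, 0.0702 and 0.088 for Mt-co1, Mt-co2 and Mt-atp8, and limma on log2(FPKM + 1) gave 0.133, 0.101 and 0.157.

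Sham-24h against Con-24h gave 3 of 13 (9.85% of all genes). Beside Mt-nd6, Mt-co1 stood at 9797, 8719 and 8906 FPKM in Sham-24h (0.57 ± 0.17, adjusted p = 0.031) and Mt-co2 at 5885, 5921 and 5644 FPKM (0.60 ± 0.18, adjusted p = 0.0352), all above the Con-24h libraries. The tRNA gene AY172581.19 rose too (1.65 ± 0.47, adjusted p = 0.0297). Mt-nd2 was at 1245, 1136 and 1157 FPKM against 1499, 1915 and 2091 in Con-24h, the reverse order without overlap, and did not pass (-0.64, adjusted p = 0.0814). DESeq2 called 3 mRNAs higher and 1 lower in Sham-24h. The calls of Mt-co1, Mt-co2 and AY172581.19 were lost without any 1 of the 6 libraries other than replicate 3 of Con-24h (adjusted p of 0.0552 to 0.147). Mt-co1 and Mt-co2 also did not pass without the low-count filter (0.0605 and 0.0615), in the 2 groups alone (0.0912 and 0.0804) or in limma on log2(FPKM + 1) (0.157 and 0.0972), and AY172581.19 did not in the 2 groups alone (0.0804). Markers of neutrophils, the granulocytes of acute inflammation, included genes that passed in both comparisons. Their 6 genes summed to 145.2 to 982.4 FPKM in Con-24h, 201.1 to 9334 in Sham-24h and 4534 to 16320 in SAP-24h, with 5 higher in SAP-24h and 2 higher in Sham-24h. The Sham-24h sums were 1344, 201.1 and 9334 FPKM, so that group overlapped Con-24h and its high value was that of replicate 3. In SAP-24h vs Con-24h, 2 of 6 alveolar type 1, 1 of 5 endothelial, 1 of 6 ciliated, 1 of 6 macrophage and 1 of 4 skeletal muscle genes were also lower and 1 of 6 macrophage genes was higher. The 10 heart muscle markers had median differences of 0.11 in SAP-24h and 1.34 in Sham-24h, none passing. Their part in the result was not tested.

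No other comparison of groups at 24 hours had a mitochondrial mRNA that passed. In SAP-24h vs Sham-24h, 12.4% of all genes passed and 0 of 13 mRNAs did, with 1 at an unadjusted p under 0.05 (28.4% of all genes), 0 by DESeq2 and a median difference of 0.11. In DEX-24h vs SAP-24h (7.71% of all genes) and Emo-24h vs SAP-24h (8.59% of all genes) none passed, none had an unadjusted p under 0.05 (23.1% and 26.3% of all genes) and DESeq2 called 0, with medians of 0.05 and -0.07. The 13 differences from SAP-24h lay between -0.08 and 0.24 for DEX and between -0.24 and 0.21 for emodin. Emo-24h vs DEX-24h (8.89% of all genes) gave 0 passing, 0 at an unadjusted p under 0.05 (21.2%) and 0 by DESeq2. Against Sham-24h, 0 passed in DEX-24h (6.97% of all genes), with 2 at an unadjusted p under 0.05 (19.9%) and 1 by DESeq2. Emo-24h against Sham-24h (0% of all genes) also had 0, with 3 at an unadjusted p under 0.05 (3% of all genes) and 0 by DESeq2.

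Emodin-treated lungs had the most mitochondrial calls between 6 and 24 hours, with 7 of 13 mRNAs that rose and none that fell (34.1% of all genes passed, 17.3% higher). Of the 7, 5 encode complex I subunits and 2 encode complex IV subunits. Mt-nd4 went from 822, 981 and 652 FPKM in Emo-6h to 1807, 1918 and 1715 in Emo-24h, 2.15-fold (1.11 ± 0.22, adjusted p = 0.00056). Mt-nd4l, which lies on the same transcript as Mt-nd4, went from 286, 338 and 215 FPKM to 870, 902 and 459 FPKM, 2.57-fold (1.36 ± 0.29, adjusted p = 0.00122). These 2 were the DEGs among the 13 (9.41% of all genes), and in both the groups did not overlap. Mt-nd2 went from 874, 1094 and 954 FPKM to 1930, 1940 and 1958 FPKM (0.96 ± 0.24, adjusted p = 0.00367), without overlap.

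Mt-co2 went from 2473, 3290 and 2658 FPKM to 5318, 6172 and 4659 FPKM (0.90 ± 0.18, adjusted p = 0.000695). Mt-nd3 went from 1027, 1166 and 966 FPKM to 1721, 1867 and 1545 FPKM (0.66 ± 0.19, adjusted p = 0.00944). Neither gene overlapped between times. Mt-cox3 (0.43 ± 0.15, adjusted p = 0.0296) and Mt-nd5 (0.54 ± 0.19, adjusted p = 0.0328) rose by less, and the Mt-nd5 libraries overlapped, with replicate 2 of Emo-6h at 369 FPKM and replicate 3 of Emo-24h at 343 FPKM. The remaining 6 mRNAs had differences from 0.22 (Mt-nd6) to 0.40 (Mt-nd1) and did not pass. The longer rRNA AY172581.24 (0.91 ± 0.32, adjusted p = 0.0301) and the tRNA gene AY172581.12 (1.33 ± 0.44, adjusted p = 0.0232) rose, while AY172581.9 did not pass (adjusted p = 0.408).

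For Mt-nd4, Mt-nd4l, Mt-nd2, Mt-co2 and Mt-nd3 the rise in emodin-treated lungs passed under all 7 alternative settings and without each library in turn. Mt-cox3 held only without replicate 2 of Emo-6h (adjusted p of 0.0576 to 0.173 otherwise), and Mt-nd5 only without that library or replicate 3 of Emo-24h (0.0705 to 0.213 otherwise). Mt-cox3 was also lost without the low-count filter (0.0651), in the 2 groups alone (0.0771) and in limma on log2(FPKM + 1) (0.0897), and Mt-nd5 without the filter (0.056) and in the 2 groups alone (0.118). AY172581.24 was lost without replicate 1 or 2 of Emo-6h or replicate 2 or 3 of Emo-24h (0.0808 to 0.12), and AY172581.12 without replicate 3 of Emo-6h or replicate 1 or 2 of Emo-24h (0.0557 to 0.112). Red blood cell markers moved in the opposite direction, with 5 of 6 lower and a sum of 3960 to 10200 FPKM in Emo-6h against 376.9 to 1630 in Emo-24h. In untreated SAP lungs that sum was 8141 to 12630 FPKM at 6 hours and 1436 to 2632 at 24 hours, also without overlap. In DEX lungs the sums overlapped (976.7 to 8296 and 1666 to 2072). The 10 heart muscle markers summed to 19.3 to 184.9 FPKM in Emo-6h and 165.1 to 325.5 in Emo-24h, none at 0, with a median difference of 1.73 and none passing. Their part in the result was not tested.

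In DEX-24h vs DEX-6h, 5 of 13 mRNAs rose and none fell (25.9% of all genes passed). Mt-nd4 went from 1273, 926 and 953 FPKM to 1505, 1880 and 1786 FPKM (0.73 ± 0.21, adjusted p = 0.0154). Mt-co2 went from 4394, 3903 and 2749 FPKM to 5210, 6933 and 5392 FPKM (0.68 ± 0.18, adjusted p = 0.00808). Neither gene overlapped between the times. Mt-nd4l (0.91 ± 0.29, adjusted p = 0.023), Mt-nd2 (0.68 ± 0.24, adjusted p = 0.0374) and Mt-nd3 (0.51 ± 0.19, adjusted p = 0.0478) also rose, and so did the tRNA genes AY172581.1 (1.20 ± 0.37, adjusted p = 0.0212) and AY172581.12 (1.16 ± 0.41, adjusted p = 0.0382). These 5 mRNAs are among the 7 that rose with emodin. With libraries left out in turn, 3 mRNAs passed without replicate 1 or without replicate 3 of DEX-24h, 1 without replicate 2 of DEX-24h or of DEX-6h, 6 without replicate 1 of DEX-6h and 0 without replicate 3 of DEX-6h. Mt-nd3 passed under 2 of the 7 alternative settings, and 2 mRNAs passed in the 2 groups alone or in limma on log2(FPKM + 1). The AY172581.1 call was lost without replicate 2 of DEX-24h or replicate 2 or 3 of DEX-6h (0.0551 to 0.0902). That of AY172581.12 was lost without replicate 2 or 3 of either group (0.0518 to 0.235), without the low-count filter (0.0656) and in the 2 groups alone (0.111). The 10 heart muscle markers had a median difference of -0.76, none passing and 0 at an unadjusted p under 0.05. Of the other marker lists, 1 of 7 alveolar type 2, 1 of 6 alveolar type 1, 1 of 6 macrophage and 2 of 5 endothelial genes rose, and 1 of 5 endothelial and 1 of 6 neutrophil genes fell. Their part in the result was not tested.

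No mitochondrial mRNA passed from 6 to 24 hours in the groups without a drug. In SAP-24h vs SAP-6h (6.01% of all genes) none passed, none had an unadjusted p under 0.05 (24.8%), DESeq2 called 0 and the median was 0.00. Mt-nd4 was at 1691, 1809 and 1310 FPKM in SAP-6h and at 1177, 1340 and 1914 FPKM in SAP-24h, with overlap (difference -0.03). In Sham-24h vs Sham-6h (0.992% of all genes) none passed, 2 had an unadjusted p under 0.05 (20.4%) and DESeq2 called 1. Mt-co2 was at 5136, 4518 and 3557 FPKM in Sham-6h and at 5885, 5921 and 5644 FPKM in Sham-24h, without overlap. In Con-24h vs Con-6h (0.0126% of all genes) none passed, 4 had an unadjusted p under 0.05 (10.5%) and DESeq2 called 1. Mt-nd3 was at 884, 1024 and 935 FPKM in Con-6h and at 1633, 1603 and 1597 FPKM in Con-24h, also without overlap. In both the Sham and the Con comparison 9 of 13 differences were above 0, with ranges of -0.30 to 1.00 and -0.67 to 0.82.

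Whether the change over time differed between drug-treated and untreated SAP lungs was tested directly. The change of Mt-nd4 from 6 to 24 hours was larger with emodin than in SAP, by 1.13 ± 0.30 (adjusted p = 0.0411), and was the only one of 13 mRNAs to pass (3.57% of all genes). Mt-nd4l had the same difference of 1.13 (adjusted p = 0.0983), followed by Mt-nd2 (0.85, adjusted p = 0.129), Mt-co2 (0.79, adjusted p = 0.0689), Mt-nd5 (0.79, adjusted p = 0.0854) and Mt-nd3 (0.78, adjusted p = 0.0836). In all, 6 mRNAs had an unadjusted p under 0.05 (23.4% of all genes). At 6 hours Mt-nd4 lay between 652 and 981 FPKM with emodin and between 1310 and 1809 FPKM in SAP, and at 24 hours between 1715 and 1918 and between 1177 and 1914 FPKM. The Mt-nd4 call held in 3 of 12 fits that left out 1 library (without replicate 2 of Emo-6h, replicate 3 of SAP-6h or replicate 3 of SAP-24h), with adjusted p of 0.055 to 0.127 in the others. Of 6 ciliated cell markers 1 was higher in the same test, with a median difference of 1.09, and the median heart muscle difference was 3.00, none passing. Their part in the result was not tested.

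For DEX against SAP, 0 of 13 mRNAs passed the same test (0.169% of all genes), with 3 at an unadjusted p under 0.05 (13.6%) and 0 by DESeq2. Mt-nd4 had the largest difference, 0.76 (adjusted p = 0.272). For SAP against Sham, 0 passed (0.0314% of all genes), with 0 at an unadjusted p under 0.05 (12.6%) and 0 by DESeq2.

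**Figure D4:**
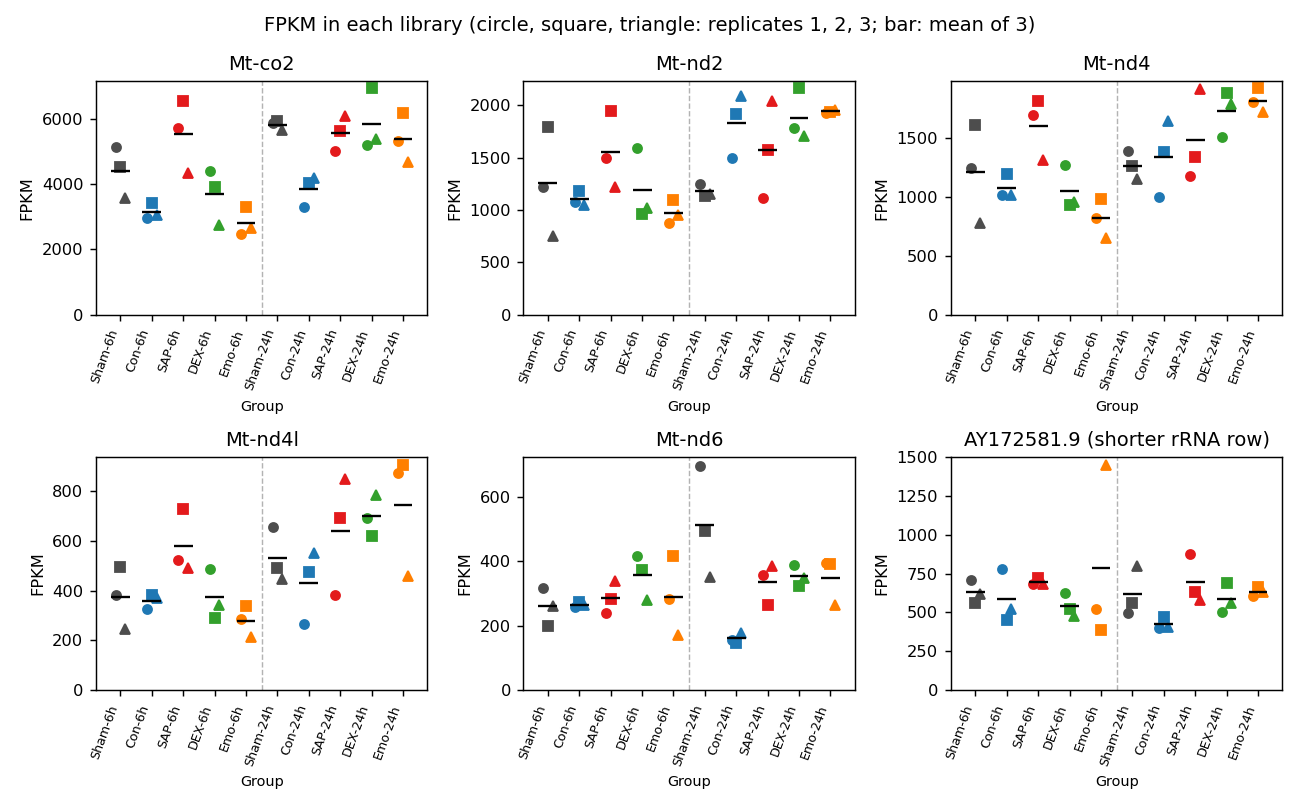
FPKM of 6 mitochondrial genes in each library (circle, square and triangle for replicates 1, 2 and 3), with bars at group means and a dashed line between 6-hour and 24-hour groups. The Emo-24h points of Mt-nd4 (1715 to 1918) and Mt-nd2 (1930 to 1958) lie above all Emo-6h points, Con-24h is lowest for Mt-nd6 (148 to 178), and replicate 3 of Emo-6h stands alone for AY172581.9 (1449).

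Pairs of mRNAs that share a transcript kept a loose ratio. Mt-nd4l overlaps Mt-nd4 and Mt-atp8 overlaps Mt-atp6, each pair on a single mRNA, so reads near the overlap can count for either gene. The FPKM ratio of Mt-nd4l to Mt-nd4 ran from 0.266 to 0.516, and that of Mt-atp8 to Mt-atp6 from 0.338 to 0.81. The same libraries were extreme in both: replicate 1 of Con-24h and replicate 3 of Emo-24h were the lowest, with 0.266 and 0.267 for the first pair and 0.338 and 0.387 for the second, and replicate 2 of SAP-24h was the highest in both. The ratio of Mt-nd6 to Mt-nd5, neighbours on opposite strands, averaged 0.578 ± 0.115 in Con-24h and 1.23 ± 0.128 in Sham-24h (SD, n = 3), and ran from 0.49 to 1.31 over all libraries.

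The nuclear genes of OXPHOS were examined beside the mitochondrial ones, with 71 of 75 matched genes tested. In Emo-24h vs Emo-6h, 27 were lower and 5 higher (34.1% of all genes passed in either direction), with a median of -0.21 against 0.43 for the mitochondrial mRNAs and 0.03 for all genes. The lower genes came from complexes I (14 of 31), III (2 of 8), IV (6 of 12) and V (5 of 16), and 0 of 4 complex II genes passed. Uqcrc1, a core subunit of complex III, fell by 0.88 from 122.5 to 68.6 FPKM (adjusted p = 2.9e-05). Cox6a1 (-0.78) and Cox5b (-0.69) of complex IV, Atp5d (-0.74) of the ATP synthase and Ndufa11 (-0.73) of complex I fell as well. Uqcrc2 (0.50) and Cox7b (0.63) were among the 5 that rose. In DEX-24h vs DEX-6h, 23 were lower and 2 higher (25.9% of all genes), with a median of -0.14. Uqcrc1 (-0.75) and Atp5g2 (-0.64) fell most, and Ndufb3 (0.55) rose. With 1 library left out, 24 to 30 nuclear OXPHOS genes passed with emodin and 19 to 21 with DEX, other than 9 without replicate 1 of DEX-24h. In SAP-24h vs SAP-6h, Atp5f1, named after its values were seen, had a large fitted difference (5.10, adjusted p = 0.208) and an FPKM in SAP-24h that ran from 0.03 to 6.57.

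Against Con-24h, 13 of 71 were lower and 0 higher in SAP-24h (22.1% of all genes, a larger share). The lower genes included Ndufa7 (-0.51), Ndufs7 (-0.46) and Uqcrc1 (-0.37). In Sham-24h, 11 were lower and 0 higher (9.85% of all genes), among them Ndufb7 (-0.53), Ndufs7 (-0.52) and Atp5d (-0.48). These counts turned on single libraries, with 1 to 21 passing in SAP-24h (fewest without replicate 1 of Con-24h) and 0 to 24 in Sham-24h (fewest without replicate 2 of Con-24h), and none passed in fits of the 2 groups alone. In the comparison of Emo-6h with SAP-6h and in that of SAP-6h with Con-6h, 0 of 71 passed by edgeR or by DESeq2. By edgeR, 0.0314% and 0.207% of all genes passed. The medians were 0.05 and -0.05. In Emo-6h vs SAP-6h, 13 of 71 had an unadjusted p under 0.05 (13.5% of all genes). In the test of emodin against SAP over time, 2 of 71 passed, Uqcrc1 (-0.62) and Ndufa8 (-0.60), a smaller share than the 3.57% of all genes. That count ran from 0 to 8 with 1 library left out and from 0 to 11 over the alternative settings.

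**Figure D5:**
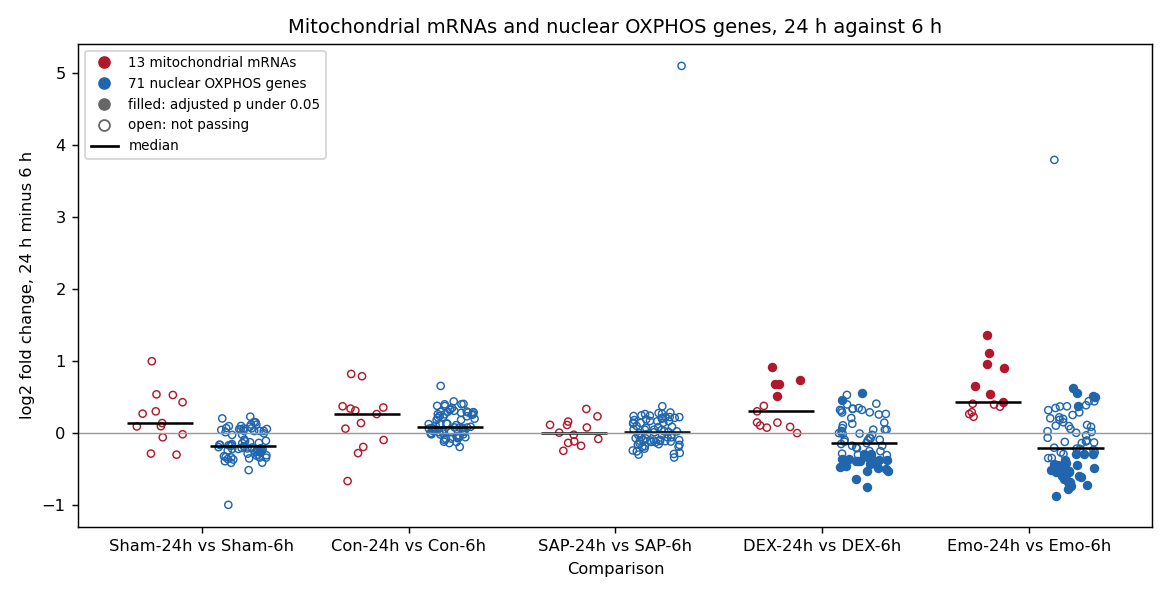
Log2 fold change from 6 to 24 hours of the 13 mitochondrial mRNAs (red) and 71 nuclear OXPHOS genes (blue) in each treatment, filled where the adjusted p was under 0.05, with a bar at each median. In Emo-24h vs Emo-6h the mitochondrial mRNAs lie above 0 (median 0.43) and most filled nuclear genes below it (27 lower, 5 higher), while in SAP-24h vs SAP-6h no point is filled.

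Genes that copy and transcribe mitochondrial DNA did not move as one. Of 13 tested, 4 rose and 3 fell in Emo-24h vs Emo-6h (34.1% of all genes passed), and 3 rose and 1 fell in DEX-24h vs DEX-6h (25.9%). Tfb2m, which opens the promoter with the polymerase, rose by 1.29 (adjusted p = 0.00108), the elongation factor Tefm by 1.26 (adjusted p = 0.000391) and Ssbp1, the single-stranded DNA binding protein, by 0.83 (adjusted p = 0.0103). Tfam, which packages the DNA and starts transcription, rose by 0.53 (adjusted p = 0.00877), whereas the polymerase Polrmt fell by 0.44 (adjusted p = 0.0149). In DEX-24h vs DEX-6h, Tefm (1.02), Tfb2m (0.82) and Ssbp1 (0.69) rose, Polrmt fell by 0.51, and Tfam (0.36, adjusted p = 0.0795) did not pass. Ppargc1a, a coactivator of mitochondrial biogenesis, did not pass in either (0.51, adjusted p = 0.288, and 0.46, adjusted p = 0.37). In SAP-24h vs Con-24h, Polrmt (-0.22, adjusted p = 0.266) and Tfam (0.36, adjusted p = 0.0885) did not pass, and neither did they in Sham-24h vs Con-24h (-0.33, adjusted p = 0.119, and 0.27, adjusted p = 0.246).

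Of 40 mitochondrial ribosomal protein genes, 12 fell and 3 rose in Emo-24h vs Emo-6h, with Mrpl28 (-0.87), Mrpl2 (-0.86) and Mrps18a (-0.85) falling most, and 5 fell and 1 rose in DEX-24h vs DEX-6h. The 15 of 40 with emodin are a share near that of all genes (34.1%), and the 6 of 40 with DEX a share below it (25.9%). Of 18 genes of mitochondrial RNA processing and stability, 3 rose and 4 fell with time in emodin-treated lungs, again near the share of all genes. Pnpt1, a polynucleotide phosphorylase, rose by 1.12 and Fastkd2, an RNA-binding protein, by 0.99, and Tbrg4 fell by 0.91. Among 7 markers of mitochondrial membranes and matrix, 1 rose and 2 fell, with Tomm40, the pore of the outer membrane import complex, falling by 0.88 and the citrate synthase Cs by 0.42. Among 10 regulators of biogenesis, 2 rose and 1 fell, with Gabpa rising by 0.91 and Esrra falling by 0.50. The list of brown fat markers, another mitochondria-rich tissue, held 2 tested genes, of which Cidea rose (0.97). Of the marker lists for other lung cells, in Emo-24h vs Emo-6h 1 of 6 alveolar type 1, 1 of 6 macrophage and 1 of 5 endothelial genes fell, and 1 of 7 alveolar type 2, 1 of 6 ciliated and 2 of 5 endothelial genes rose. None of 3 club cell, 4 skeletal muscle and 6 neutrophil genes passed there by edgeR, with 0 at an unadjusted p under 0.05 in each list. The neutrophil genes summed to 1396 to 3842 FPKM in Emo-6h and 4365 to 6697 in Emo-24h, without overlap (median difference 0.41), and their part in the mitochondrial results was not tested.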

How the data were processed

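RNA-seq was performed on lung RNA of 30 rats, in libraries of polyadenylated RNA that keep the strand. Adaptors and poor bases were removed by the authors, who mapped read pairs with TopHat2 to the Ensembl rat genome (rat_ensembl_v6) and left out multi-mapped reads, so reads shared with nuclear copies of mitochondrial DNA are lost. The authors deposited counts, whole numbers without normalization, for 22914 genes, and FPKM values for 22907. The counting program and its use of strand are not given in the sources used here. In the study's mapping summary the share of uniquely mapped reads was lower in every library of taurocholate rats than in every Sham or Con library, so group and mapped share cannot be told apart in comparisons across these sets. The share was also higher in all 24-hour than in all 6-hour libraries of DEX and of emodin rats, and its part in those results was not tested.

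The counts went into edgeR 4.0.16, with limma 3.58.1 and R 4.3.3. Genes were kept by filterByExpr at a count of at least 10 and a total of at least 15, libraries were scaled by TMM, and 1 quasi-likelihood model held all 10 groups, with 20 residual degrees of freedom and Benjamini-Hochberg adjustment over 15934 genes. FPKM gave levels. In simulated counts for Emo-24h vs Emo-6h (15766 genes), 54 of 100 genes changed by 1 on the log2 scale and 75 of 100 changed by 2 were called, with 3 unchanged genes called.

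The alternatives were RLE factors, DESeq2 1.42.0, no filter on low counts, the compared groups alone, a replicate block, scaling from nuclear genes only, limma on log2(FPKM + 1), and each library left out. The test of Sham against Con over time and the share over all mitochondrial genes were added after seeing the data. Figures were drawn with Python 3.11.15, pandas 2.3.3 and matplotlib 3.10.9.

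All genes on chromosome MT are accounted for, and every mRNA, rRNA and tested tRNA is named. Of the nuclear lists, each OXPHOS complex being 1 list, up to 3 genes per list and comparison with the largest change among those passing were named, plus Polrmt, Tfam and Ppargc1a. Atp5f1 was named outside this rule. The members and lists were chosen with earlier results of these data known. Marker lists covered 11 cell types. Each library is 1 rat, so p-values measure the spread between rats. Same-numbered replicates had correlated deviations over 0.1 in all 3 pairs in 1 of 21 comparisons, DEX-24h vs DEX-6h (0.212, 0.221 and 0.23), so the numbers were not taken to pair rats elsewhere.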

Additional observations from a re-analysis of the deposited data

Results flagged for a closer look

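The change of Mt-nd4 from 6 to 24 hours differed between emodin-treated and untreated SAP lungs, by 1.13 on the log2 scale (edgeR's quasi-likelihood test of the difference, adjusted p = 0.0411). Its mean was 818 FPKM in Emo-6h and 1813 FPKM in Emo-24h, higher in all 3 Emo-24h libraries than in all 3 Emo-6h libraries, while the SAP-6h and SAP-24h libraries overlapped. The Mt-nd4 difference passed in 3 of 12 fits that left out 1 library (adjusted p of up to 0.127) and was lost without the low-count filter (0.0574), in the compared groups alone (0.127) and in limma on log2(FPKM + 1) (0.0648).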

How the results depend on the processing

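Calls rest on 3 rats per group, and tRNA genes on few reads. Single genes were recomputed where they had passed and, for all mRNAs, in the comparisons of SAP with Sham and of each drug with SAP at each time. Of these values over the alternatives, 682 kept direction and side of the threshold, 44 no longer passed (19 in the compared groups alone, 14 in limma on log2(FPKM + 1), 9 without the low-count filter, 1 with RLE factors and 1 with scaling from nuclear genes only), 4 newly passed, in DESeq2 for Emo-6h vs SAP-6h, and 19 reversed. Other mRNAs that newly passed are in the counts that follow. The causes were not tested. Limma on FPKM moved the median of all genes by over 0.1 in SAP-24h vs Sham-24h (-0.117), SAP-24h vs Con-24h (-0.119), Emo-24h vs SAP-24h (0.145) and the test of emodin against SAP over time (0.136).

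The number of mitochondrial mRNAs passing changed as follows. In SAP-6h vs Con-6h (2) it was 4 in DESeq2 and 0 in the groups alone and in limma on FPKM. In Emo-6h vs SAP-6h (1) it was 5 in DESeq2 and 0 without the filter, in the groups alone and in limma on FPKM. In Emo-6h vs Sham-6h (0) it was 1 in DESeq2. In SAP-24h vs Con-24h (4) it was 1 in the groups alone and in limma on FPKM. In Sham-24h vs Con-24h (3, all higher) it was 4 in DESeq2 (3 higher and 1 lower), 1 without the filter and in limma on FPKM and 0 in the groups alone. In DEX-24h vs Sham-24h (0) it was 1 in DESeq2 and in the groups alone, and in Sham-24h vs Sham-6h and Con-24h vs Con-6h (0 in each) it was 1 in DESeq2. In DEX-24h vs DEX-6h (5) it was 2 in the groups alone and in limma on FPKM. In the test of emodin against SAP over time (1) it was 2 in DESeq2 and 0 without the filter, in the groups alone and in limma on FPKM. In Emo-24h vs Emo-6h (7) each of the 7 alternatives stayed within 1.5 times of 7. The share of mitochondrial mRNA reads in Sham-24h was 4.63% of the TMM-scaled library size, and 5.03% over all mitochondrial genes. That in Emo-24h was 4.74% of the TMM-scaled size.

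With a replicate block, 152 of 155 recomputed values were counted as unchanged. A fold change had to keep its direction and call, and a count of genes passing had to stay within 1.5 times. The exceptions were 1 mRNA passing in Emo-6h vs Sham-6h, 1 nuclear OXPHOS gene in place of 2 in the test of emodin against SAP over time, and a reversal of Mt-nd6 in Emo-6h vs SAP-6h (-0.026). The nuclear OXPHOS count in that test ranged from 0 in the groups alone to 11 in DESeq2, and from 0 to 8 with a library left out. In DEX-24h vs DEX-6h the block gave 5 mRNAs, as without it.

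With each library left out in turn, the number passing was 0 to 2 in SAP-6h vs Con-6h, Emo-6h vs SAP-6h and Emo-6h vs Sham-6h, 2 to 5 in SAP-24h vs Con-24h, 1 to 4 in Sham-24h vs Con-24h, 0 to 6 in DEX-24h vs DEX-6h, 5 to 8 in Emo-24h vs Emo-6h and 0 to 3 in the test of emodin against SAP over time. It stayed at 0 in the other 16.

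Reversed signs belong to genes that did not pass. Mt-nd6 in Emo-6h vs SAP-6h (0.00) was -0.0020 in the groups alone and with nuclear scaling and -0.062 in limma on FPKM. In limma on FPKM, SAP-24h vs Sham-24h gave Mt-co1 -0.027, Mt-atp6 -0.017, Mt-cox3 -0.053, Mt-co2 -0.065 and Mt-atp8 -0.042. DEX-24h vs SAP-24h gave Mt-co1 0.0077, Mt-co2 0.061, Mt-atp8 0.071, Mt-nd1 0.062 and Mt-nd6 0.091. Emo-24h vs SAP-24h gave Mt-atp6 0.13, Mt-cox3 0.031, Mt-cytb 0.042, Mt-nd1 0.098 and Mt-nd6 0.054. Leaving out single libraries gave signs that differed from that of the full fit, with ranges of -0.16 to 0.40 for Mt-cytb and -0.13 to 0.40 for Mt-nd1 in SAP-6h vs Sham-6h, and of -0.32 to 0.28 for Mt-nd6 in Emo-6h vs SAP-6h. In DEX-6h vs SAP-6h the ranges were -0.18 to 0.064 for Mt-atp6, -0.50 to 0.055 for Mt-cytb, -0.14 to 0.18 for Mt-atp8 and -0.45 to 0.068 for Mt-nd1. For Mt-nd5 in SAP-24h vs Sham-24h it was -0.31 to 0.036. In DEX-24h vs SAP-24h they were -0.19 to 0.040 for Mt-co1, -0.069 to 0.17 for Mt-atp6, -0.068 to 0.17 for Mt-cox3, -0.17 to 0.083 for Mt-co2, -0.077 to 0.15 for Mt-cytb, -0.086 to 0.042 for Mt-atp8, -0.18 to 0.065 for Mt-nd1, -0.18 to 0.27 for Mt-nd4l and -0.18 to 0.091 for Mt-nd6. In Emo-24h vs SAP-24h they were -0.13 to 0.039 for Mt-atp6, -0.43 to 0.032 for Mt-atp8, -0.23 to 0.015 for Mt-nd1, -0.015 to 0.36 for Mt-nd2, -0.18 to 0.29 for Mt-nd4l and -0.29 to 0.0090 for Mt-nd6.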
